A study of Mus musculus with 9 samples.

Results

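Mouse protein tyrosine phosphatases other than SHP2, the product of Ptpn11, were examined in peritoneal macrophages in which SHP2 had been deleted or inhibited. The group was made of 10 genes chosen by name, Ptpn1, Ptpn2, Ptpn12, Ptpn18, Ptpn22, Ptprc, Ptpre, Ptpro, Ptprj and Ptpra, and all 10 were found among the 54059 genes of the table through the GENCODE M21 annotation. The question for each was whether its mRNA was higher where SHP2 was missing or blocked, the sense in which compensation could be read from RNA. RNA was sequenced from adherent peritoneal macrophages (PMs) that had been elicited with starch in C57BL/6 mice, given as 8 weeks old in the labels, in 3 groups of 3 libraries. The wild-type group was stimulated for 4 h with imiquimod (IMQ), an agonist of Toll-like receptor 7. In the M-Shp2-/- group, PMs of mice labelled SHP2lyz2-/- received the same stimulus. These mice carry a floxed Shp2 gene that Cre removes under the Lyz2 promoter, which is active in monocytes, mature macrophages and granulocytes. In the SHP099 group, wild-type PMs were held for 2 h in 10 µM SHP099, an allosteric inhibitor of SHP2, before the 4 h of IMQ. Treatments and times come from the methods of the study and not from the sample labels. There was no group without IMQ, so each difference is between stimulated cells.

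Protein tyrosine phosphatases remove phosphate from tyrosine residues and so reverse the action of tyrosine kinases. The classical family has cytosolic enzymes, whose other domains place them on receptors, adaptors or membranes, and receptor-type enzymes that span the membrane. In macrophages they act on Src-family kinases, JAK kinases, growth factor receptors and adhesion proteins, where some restrain signalling and others, SHP2 and CD45 among them, allow it.

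The level of Ptpn11 (ENSMUSG00000043733, chromosome 5 of GRCm38, 121130533 to 121191397, minus strand) was checked first against the group labels. It was 45.8, 44 and 40 FPKM (fragments scaled by gene length and library depth) in the wild-type libraries, 18.6, 17.8 and 18.9 in M-Shp2-/-, and 43, 42.1 and 39.6 with SHP099. All 3 M-Shp2-/- libraries lay below all others, with a mean at 42.5% of wild type, while the SHP099 and wild-type ranges overlapped. The log2 fold change from wild type was -1.19 in M-Shp2-/- (95% interval -1.42 to -0.96, limma, adjusted p = 0.0168, lower in 3 of 3 libraries) and -0.05 with SHP099 (adjusted p = 0.729). With 1 library fewer the M-Shp2-/- difference held its size, from -1.24 to -1.15, but its adjusted p was above 0.05 without wild-type replicate 1 (0.105) or 2 (0.125) or M-Shp2-/- replicate 1 (0.196) or 2 (0.151), and with a block by replicate number (0.157). Between M-Shp2-/- and SHP099 it was -1.13 (limma, adjusted p = 0.0109, lower in 3 of 3 libraries), at an adjusted p above 0.05 without M-Shp2-/- replicate 1 (0.115) or 2 (0.0641) or SHP099 replicate 1 (0.0534), 2 (0.0942) or 3 (0.0996), and with the block (0.146). A value for the whole gene cannot show whether the floxed exon is missing from the remaining transcripts. Fewer cells of a type and less RNA per cell cannot be told apart in bulk RNA, for this gene or for any other.

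The cells carried macrophage markers in every library. Lyz2 was the most abundant of 9 such markers, at 7440.3, 10228 and 7951 FPKM in wild type, 4863, 4743 and 5407 in M-Shp2-/- and 9348, 10279.9 and 10715 with SHP099. Lyz2, whose promoter drives Cre in these mice, was thus lower in all 3 M-Shp2-/- libraries than in any other library. The 9 markers together summed to 10423, 13429 and 11191 FPKM in wild type, 7599, 7471 and 8416 in M-Shp2-/- and 11780.2, 13007 and 13738 with SHP099. Cd68 and Adgre1 (F4/80), both in the list and named after their values were seen, were at least 1211 and 172 FPKM in every library. Lyz2 made up most of each sum. The means of Cd68 (1377 FPKM in wild type, 1523 in M-Shp2-/-) and Csf1r (78.9 and 112) were higher in M-Shp2-/-, with overlap of libraries. Those of the other markers in the list were lower.

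Depth, recovered from the FPKM and the annotated gene lengths, was 42537748 to 50985468 reads in wild type, 41155595 to 45611153 in M-Shp2-/- and 39839198 to 43894627 with SHP099. A library stood apart within the M-Shp2-/- group. Across genes, the log2 values of its replicates 1 and 2 correlated at 0.992, while replicate 3 correlated with them at 0.967 and 0.954 (genes are not independent replicates). Wild-type replicate 3 correlated at 0.976 and 0.974 with the other wild-type libraries, which correlated at 0.984, and the SHP099 libraries correlated at 0.988 to 0.991. The labels do not say whether the libraries of a group came from separate animals, so the p-values measure only the spread between these libraries.

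All 10 genes passed the filter of a mean of 1 FPKM over the 9 libraries, as did 11450 genes in all, but they covered a wide range of levels. In wild type the order of mean FPKM was Ptpn1 (277 ± 78.5, SD, n = 3), Ptprc (196 ± 16.3), Ptpn12 (189 ± 19.6), Ptprj (128 ± 14.2), Ptpre (88.8 ± 7.24), Ptpra (41 ± 2.88), Ptpn2 (20.7 ± 2.85), Ptpro (16.6 ± 1.77), Ptpn18 (1.34 ± 0.298) and Ptpn22 (1.09 ± 0.456). Ptpn1 lay at percentile 96.5 of the tested genes and Ptpn22 at percentile 3.94. Neighbours in that order whose wild-type ranges overlapped were Ptprc with Ptpn12, Ptpn2 with Ptpro, and Ptpn18 with Ptpn22, and the other neighbours did not overlap. Within each wild-type library Ptpn2 was above Ptpro and Ptpn18 above Ptpn22, while the order of Ptprc and Ptpn12 changed between libraries. In M-Shp2-/- the order of the means was the same but for Ptpn22 (1.2 ± 0.0818) above Ptpn18 (1.08 ± 0.209), from Ptpn1 (261 ± 56.6) down, with Ptprc and Ptpn12 level at 185. With SHP099 Ptpn12 (192 ± 9.04) stood above Ptprc (181 ± 11), and the order was otherwise that of wild type, from Ptpn1 (247 ± 16.5) to Ptpn22 (1.07 ± 0.369). FPKM was scaled by the mean length of the annotated transcripts of a gene. Scaled by the longest transcript instead, Ptprj (81.5) would stand above Ptpn12 (65.6), and Ptpn22 (0.593) above Ptpn18 (0.489).

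**Figure D1:**
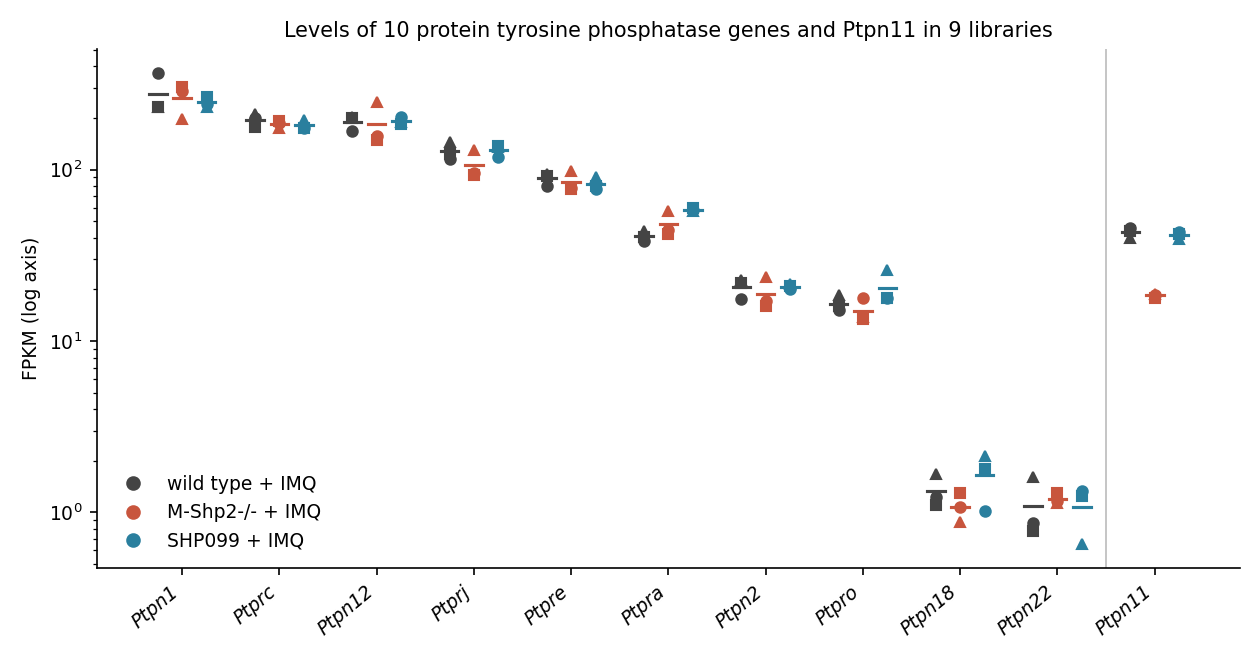
FPKM on a log axis of the 10 phosphatase genes, in order of their wild-type mean, and of Ptpn11 in each of 9 libraries, with circles, squares and triangles for replicates 1, 2 and 3, bars for group means and colours for the groups. Only Ptpn11 is visibly lower in M-Shp2-/- (18.4 against 43.3 in wild type), and Ptpra is the gene whose SHP099 libraries (57.7 to 59.4) all lie above its wild-type libraries (38.4 to 44.1).

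In M-Shp2-/- PMs none of the 10 phosphatase genes passed the test against wild type. Their log2 fold changes, taken on log2(FPKM + 1), ran from -0.28 for Ptprj to 0.21 for Ptpra, with 2 of 10 above 0 and a median of -0.08. By limma, 0 of 10 passed at an adjusted p of 0.05 or lower (0.0873% of all tested genes, 10 of 11450) and 0 had an unadjusted p under 0.05 (10.5% of all genes, 1204). By voom on the recovered reads the count was also 0. Without M-Shp2-/- replicate 3, 2 of 10 had an unadjusted p under 0.05 (Ptprj and Ptpn12, log2 fold change -0.43 and -0.30, against 2280 of all genes), and with a block by replicate number 1 did (Ptprj), while 0 of 10 passed at an adjusted p of 0.05 or lower in any of these. The 10 calls over all genes numbered 2, 1 and 5 without wild-type replicates 1, 2 and 3, 1, 1 and 8 without M-Shp2-/- replicates 1, 2 and 3, and 2 with the block. At the stricter rule of the study, an adjusted p of 0.005 or lower with an absolute log2 fold change of 1 or more, 0 of 10 passed against 0.00873% of all genes, which was 1 gene, Il6, named here after its values were seen. The study applied that rule to DESeq on counts. By limma here the deleted gene Ptpn11 did not reach it either (adjusted p = 0.0168). No member had all 3 M-Shp2-/- libraries above or all below wild type, against 16.0% of all genes above and 3.07% below. The 95% intervals of the 10 genes reached at most 1.49 times (Ptpn22) and at least 0.64 times (Ptpn1 and Ptprj) the wild-type level. The scale understates fold changes of genes near 1 FPKM, such as Ptpn18 and Ptpn22.

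The median of all tested genes lay above 0 in both comparisons with wild type, at 0.15 for M-Shp2-/- and 0.13 for SHP099, and 77.4% and 71.2% of genes had a positive log2 fold change. Median-of-ratios scaling of the libraries removed that shift. Relative to the median, 1 of 10 phosphatase genes lay higher in M-Shp2-/- (Ptpra) and 3 with SHP099 (Ptpra, Ptpro and Ptpn18). With median-of-ratios scaling 2 of 10 were positive in M-Shp2-/- and 3 of 10 with SHP099, against 6 of 10 with SHP099 in the FPKM as deposited, and with quantile normalization the counts were 1 and 5. Both comparisons use the same wild-type libraries, so they are not independent of each other.

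Ptpn1 and Ptpn2 encode the related cytosolic phosphatases PTP1B and TC-PTP, which dephosphorylate JAK kinases and the insulin receptor. Ptpn1 (ENSMUSG00000027540, chromosome 2, 167932057 to 167979385, plus strand) had 367, 232 and 230.4 FPKM in wild type, 286, 302 and 197 in M-Shp2-/- and 243, 265 and 232 with SHP099. Wild-type replicate 1 was the highest and M-Shp2-/- replicate 3 the lowest library, and the 3 groups overlapped. The log2 fold change was -0.07 in M-Shp2-/- (interval -0.64 to 0.50) and -0.13 with SHP099 (-0.56 to 0.30). Single libraries set these signs, since the value in M-Shp2-/- was 0.15 without wild-type replicate 1 and 0.12 without M-Shp2-/- replicate 3, and that with SHP099 was 0.09 without wild-type replicate 1. Ptpn2 (ENSMUSG00000024539, chromosome 18, 67665511 to 67724595, minus strand) had 17.5, 21.9 and 22.8 FPKM in wild type, 17, 16.1 and 23.5 in M-Shp2-/- and 20, 20.8 and 21.4 with SHP099. Its groups overlapped too, with group means of 20.7, 18.9 and 20.7 FPKM, and its wild-type and SHP099 means were alike to 3 digits.

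Ptpn12, Ptpn18 and Ptpn22 encode the PEST-type enzymes, cytosolic phosphatases that bind adaptors of the PSTPIP family and, for Ptpn22, the kinase Csk. Ptpn12 (ENSMUSG00000028771, chromosome 5, 20986645 to 21055911, minus strand) was the abundant member of these, with 167, 199 and 202 FPKM in wild type, 156, 149 and 249 in M-Shp2-/- and 202, 184 and 189 with SHP099. M-Shp2-/- replicate 3 was its highest library and replicate 2 its lowest, so the spread within that group (SD 56) exceeded any difference between group means. Ptpn18 (ENSMUSG00000026126, chromosome 1, 34459762 to 34475733, plus strand) had 1.23, 1.11 and 1.67 FPKM in wild type, 1.07, 1.29 and 0.875 in M-Shp2-/- and 1.02, 1.79 and 2.14 with SHP099. Ptpn22 (ENSMUSG00000027843, chromosome 3, 103859795 to 103912247, plus strand) had 0.87, 0.784 and 1.61 FPKM in wild type, 1.17, 1.29 and 1.14 in M-Shp2-/- and 1.33, 1.24 and 0.653 with SHP099. The groups overlapped for both genes, which rested on 51 to 120 reads a library (Ptpn18) and 43 to 103 (Ptpn22).

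Among the receptor-type enzymes, Ptprc encodes CD45, which removes the inhibitory phosphate from Src-family kinases in leukocytes. Ptprc (ENSMUSG00000026395, chromosome 1, 138062861 to 138175708, minus strand) had 199.8, 178 and 210.2 FPKM in wild type, 188, 193 and 174 in M-Shp2-/- and 176, 174 and 194 with SHP099. It varied least of the 10 genes across the libraries, and its intervals were among the narrowest, at -0.31 to 0.15 in M-Shp2-/- and -0.32 to 0.10 with SHP099. Ptpre, whose product is close to that of Ptpra and also acts on Src kinases (ENSMUSG00000041836, chromosome 7, 135537481 to 135686293, plus strand), had 80.6, 91.5 and 94.2 FPKM in wild type, 78.2, 77.5 and 98.1 in M-Shp2-/- and 76.6, 80.3 and 90.2 with SHP099. Its groups overlapped, and 209 of its exonic bases lie opposite an antisense transcript (5830432E09Rik, 8.74 FPKM) that could not be separated because the strand setting of the counting is not stated.

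Ptprj and Ptpro encode receptor-type phosphatases of the same subgroup, with fibronectin-like repeats outside the cell. Ptprj (CD148, ENSMUSG00000025314, chromosome 2, 90429754 to 90580647, minus strand) had 116, 123 and 144 FPKM in wild type, 95.9, 93 and 129.9 in M-Shp2-/- and 118, 138 and 135 with SHP099. M-Shp2-/- replicates 1 and 2 were lower than every other library and replicate 3 was not. The log2 fold change of Ptprj in M-Shp2-/- was -0.28 (interval -0.65 to 0.10, limma, adjusted p = 0.507, 2 of 3 libraries below all wild type), and ranged from -0.43 without replicate 3 (adjusted p = 0.225) to -0.19 without replicate 2 or wild-type replicate 3. Ptpro (ENSMUSG00000030223, chromosome 6, 137252319 to 137463233, plus strand) had 15.1, 16 and 18.5 FPKM in wild type, 17.7, 13.5 and 13.8 in M-Shp2-/- and 17.7, 17.9 and 25.9 with SHP099. SHP099 replicate 3 was its highest library, wild type overlapped both other groups, and the log2 fold change with SHP099 was 0.28 (interval -0.11 to 0.66, limma, adjusted p = 0.329, above all wild type in 1 of 3 libraries). That value was 0.10 without SHP099 replicate 3, up to 0.37 without replicate 1, and 0.14 with median-of-ratios scaling.

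**Figure D2:**
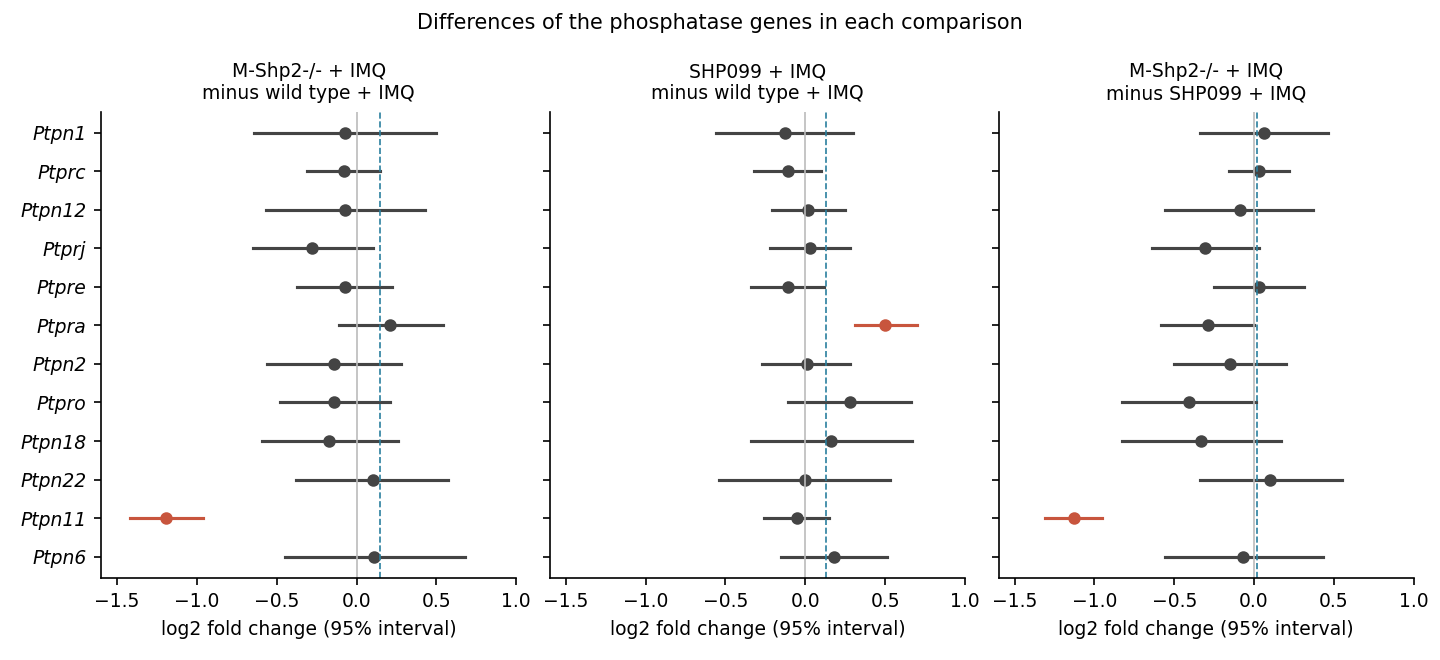
Log2 fold change (points, on log2 of FPKM + 1) with 95% intervals (lines) for the 10 phosphatase genes, Ptpn11 and Ptpn6 in the 3 comparisons, 3 libraries a group, in red where the adjusted p was 0.05 or lower, with a dashed line at the median of all 11450 tested genes. Ptpn11 is red in both comparisons that hold M-Shp2-/-, and of the others only Ptpra with SHP099 (0.50, or 0.36 with median-of-ratios scaling, where its adjusted p was above 0.05).

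SHP099 was accompanied by a higher level of 1 of the 10 genes, Ptpra, which encodes the receptor-type phosphatase PTPα, an activator of Src and Fyn. Ptpra (ENSMUSG00000027303, chromosome 2, 130450278 to 130556124, plus strand) had 38.4, 40.4 and 44.1 FPKM in wild type, 44.6, 42.2 and 57.3 in M-Shp2-/- and 58.2, 59.4 and 57.7 with SHP099. All 3 SHP099 libraries lay above all wild-type and all M-Shp2-/- libraries, and M-Shp2-/- replicate 3 came close to them while replicates 1 and 2 stayed near wild type. With SHP099 the level was 1.42 times that of wild type (interval 1.24 to 1.62), a log2 fold change of 0.50 ± 0.08 (SE, limma, adjusted p = 0.022, higher in 3 of 3 libraries) and of 0.38 above the median of all genes. In M-Shp2-/- the log2 fold change was 0.21 (interval -0.11 to 0.54, limma, adjusted p = 0.526, higher than all wild type in 2 of 3 libraries), and ranged from 0.08 without replicate 3 (adjusted p = 0.623) to 0.30 without replicate 2.

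Among the 10 genes, 1 passed with SHP099 at an adjusted p of 0.05 or lower, against 6.96% of all tested genes (797 of 11450), a share close to the background. By limma 0 of 10 passed the stricter rule of the study (0.166% of all genes, 19), 1 had an unadjusted p under 0.05 (26.7% of all genes, 3061), and voom on the recovered reads gave 1 at an adjusted p of 0.05 or lower. Libraries did not overlap for 1 gene above wild type (27.9% of all genes) and for 0 below (6.77%). The Ptpra call did not hold in every alternative. Its adjusted p was above 0.05 without wild-type replicate 1 (0.0541) or 2 (0.0532), without SHP099 replicate 1 (0.103), 2 (0.124) or 3 (0.0728), with median-of-ratios scaling (0.125) and with no filter on low values (0.0599). It passed in 10 of 17 alternatives, which gave a log2 fold change of 0.36 to 0.56 and an adjusted p of 0.0115 to 0.125. The calls over all genes moved as well, since of the 797 genes 65.4% were higher with SHP099, while median-of-ratios scaling gave 34.8% of 575 and quantile normalization 49.1% of 700. Without 1 library the 797 calls numbered 284 (wild-type replicate 1), 399 (wild-type replicate 2), 1273 (wild-type replicate 3), 90, 47 and 116 (SHP099 replicates 1, 2 and 3).

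Summed markers of some other cell types were lower with SHP099. Mean sums went the other way, with overlap of libraries, for fibroblast and mesothelial markers (139 FPKM in wild type, 204 with SHP099). So did those of T-cell and NK-cell markers (2.84 and 4.94). The sum of 5 dendritic-cell markers was 6.11, 3.92 and 3.83 FPKM in wild type, 7.33, 5.07 and 3.43 in M-Shp2-/- and 1.5, 1.03 and 1.35 with SHP099, with Ccr7 the most abundant. The mean of Ccr7 was 3.61 FPKM in wild type and 0.582 with SHP099, while not every other marker of that list was lower. For 7 mast-cell and eosinophil markers (Cma1 the most abundant) the sums were 1.09, 1.85 and 3.23, then 1.4, 0.744 and 1.06, then 0.0825, 0.09 and 0.126 FPKM in the same order of groups. Both sums were lower in each SHP099 library than in any other library, as was that of 4 endothelial markers (Kdr), at 5.51, 4.39 and 4.84, then 5.02, 5.01 and 2.02, then 1.84, 1.42 and 1.35 FPKM. No marker of these lists was at 0 in all libraries, but most were near the floor. Only 1 of 5 dendritic-cell, 0 of 7 mast-cell and eosinophil and 1 of 4 endothelial markers passed the filter of 1 FPKM. Not every marker of these lists was lower in all SHP099 libraries than in wild type. The part of these cell types in the Ptpra difference was not tested.

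Promoters are shown for the gene that passed with SHP099, for Ptpn11 and for Ptpn1, the most abundant of the 10 genes, since transcript levels are what was compared. The RefSeq table of promoters, build GRCm38.p6, held 8 of the 10 genes and not Ptpn12 or Ptpn2. The 250 bases before the RefSeq start are given 5′ to 3′ on the strand of the gene, for Ptpra (chr2:130450028-130450277, plus), Ptpn11 (chr5:121191398-121191647, minus) and Ptpn1 (chr2:167932077-167932326, plus). The Ptpn1 window lies inside the GENCODE span of that gene, which starts at 167932057, so it is upstream of the RefSeq start only. Capitals mark matches on either strand to GGGA and TCC with any 3 bases between them (the NF-kB form, in 3.86% of all 32851 promoters), TGANTCA (AP-1, 6.75%), GGGCGG (the GC box, 32.7%) or TATAAA (the TATA box, 12.4%).
Ptpra: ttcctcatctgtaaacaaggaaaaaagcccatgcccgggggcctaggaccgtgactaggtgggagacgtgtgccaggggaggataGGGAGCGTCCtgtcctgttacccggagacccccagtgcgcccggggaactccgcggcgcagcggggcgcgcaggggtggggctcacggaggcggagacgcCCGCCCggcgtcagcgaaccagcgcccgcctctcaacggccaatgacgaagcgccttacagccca
Ptpn11: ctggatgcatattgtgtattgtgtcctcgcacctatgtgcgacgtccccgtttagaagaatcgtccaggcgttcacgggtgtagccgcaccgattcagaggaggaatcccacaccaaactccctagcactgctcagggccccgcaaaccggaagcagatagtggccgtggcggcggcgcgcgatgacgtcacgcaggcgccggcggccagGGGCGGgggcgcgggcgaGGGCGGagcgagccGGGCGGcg
Ptpn1: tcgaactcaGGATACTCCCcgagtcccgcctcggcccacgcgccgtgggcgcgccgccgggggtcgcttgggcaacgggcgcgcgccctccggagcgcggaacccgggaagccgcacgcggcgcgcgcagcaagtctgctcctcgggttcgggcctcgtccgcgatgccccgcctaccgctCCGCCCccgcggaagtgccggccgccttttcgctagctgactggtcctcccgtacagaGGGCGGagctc
All 3 windows are rich in CpG, with 25, 31 and 41 against a median of 6 over all promoters. The Ptpra window has 1 match to the NF-kB form and 1 to GGGCGG, that of Ptpn11 has 3 to GGGCGG, and that of Ptpn1 has 1 to the NF-kB form and 2 to GGGCGG. None of the 3 holds TGANTCA or TATAAA, and a match describes letters and not a bound factor.

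The genes with the profile nearest to Ptpra over the 9 libraries, by the root mean square difference of centred log2 values, were Fbxo42 (0.041) and Plekhm3 (0.048), where Ptpra itself varied by 0.238. Fbxo42 had 14.2, 15.4 and 16.4 FPKM in wild type, 15.7, 14.8 and 21.9 in M-Shp2-/- and 22.4, 22 and 21.1 with SHP099, with M-Shp2-/- replicate 3 among the SHP099 libraries. Plekhm3 had 56.9, 65.2 and 65.4 FPKM, then 64.1, 61.4 and 85.1, then 84.2, 84.8 and 86.7 in the same order. For Ptpro the nearest were Stx2 (0.110) and Il2rg (0.119), and for Ptpn18 Rpl34-ps1 (0.121) and Gm10425 (0.133), against 0.251 and 0.233 for the genes themselves, so these were looser matches.

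Set directly against SHP099, deletion against inhibition, M-Shp2-/- PMs had lower Ptpra and Ptpro without overlap of libraries. Neither passed the test, and for Ptpro the nearest libraries of the groups were 17.7 to 3 digits on both sides. The log2 fold change was -0.29 for Ptpra (interval -0.58 to -0.00, limma, adjusted p = 0.397, lower in 3 of 3 libraries) and -0.41 for Ptpro (interval -0.83 to 0.01, limma, adjusted p = 0.398, lower in 3 of 3 libraries). Of all genes, 9.76% had all M-Shp2-/- libraries lower and 7.90% all higher, against 2 and 0 of the 10. By limma 0 of 10 passed at an adjusted p of 0.05 or lower (0.0699% of all genes, 8), 1 (Ptpra) had an unadjusted p under 0.05 (12.6% of all genes, 1437), and voom gave 0. The stricter rule called 0 of 10, and 0% of all genes (0 of 11450, and 0 by voom). The median log2 fold change of the 10 was -0.12, against 0.02 for all genes.

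M-Shp2-/- replicate 3 decided much of that comparison. Without it 4 of the 10 genes were lower in M-Shp2-/- at an adjusted p of 0.05 or lower, against 7.89% of all genes lower (903) and 19.9% called in either direction (2277, of which 60.3% were higher), and each had both remaining M-Shp2-/- libraries below all 3 SHP099 libraries. They were Ptpra (log2 fold change -0.42, limma, adjusted p = 0.00791), Ptprj (-0.46, adjusted p = 0.0147), Ptpn12 (-0.33, adjusted p = 0.0201) and Ptpn2 (-0.31, adjusted p = 0.0328). For all 4, replicate 3 had the highest level of its group.

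Summed over the 10 genes, phosphatase mRNA was 1004, 904 and 969 FPKM in wild type, 886, 888 and 945 in M-Shp2-/- and 914, 942 and 949 with SHP099. The mean of M-Shp2-/- minus that of wild type was -52.9 FPKM, about the wild-type SD of 50.4, and the groups overlapped. Ptpn11 itself was lower by 24.9 FPKM. Over the 38 genes of the classical family, 3 of them (Ptpn20, Ptprh and Ptprt) at 0 in all libraries, the sum was 1509.5 ± 82.2 in wild type, 1472 ± 16.2 in M-Shp2-/- and 1534 ± 23.4 with SHP099 (SD, n = 3). Ptpn11 made up 2.87 ± 0.221% of that sum in wild type, 1.25 ± 0.0465% in M-Shp2-/- and 2.71 ± 0.156% with SHP099. Those shares describe mRNA, and phosphatase protein or activity was not measured.

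Ptpn6 encodes SHP1, the nearest relative of SHP2, which is abundant in blood cells and mostly restrains signalling. It had 298, 212 and 275 FPKM in wild type, 332, 333 and 198 in M-Shp2-/- and 267, 304 and 310.4 with SHP099. The groups overlapped, with M-Shp2-/- replicates 1 and 2 the highest libraries and replicate 3 the lowest. The log2 fold change was 0.11 in M-Shp2-/- (interval -0.45 to 0.68, limma, adjusted p = 0.821, and from -0.03 without wild-type replicate 2 to 0.36 without M-Shp2-/- replicate 3) and 0.18 with SHP099 (-0.15 to 0.51, adjusted p = 0.462).

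Of the 26 further classical phosphatase genes 13 were tested, and at an adjusted p of 0.05 or lower limma called 0 in M-Shp2-/- (3 had an unadjusted p under 0.05, and voom called 0) and 1 with SHP099. Over all genes 0.0873% and 6.96% were called and, in M-Shp2-/-, 10.5% had such an unadjusted p. The called gene was Ptpn4, a cytosolic phosphatase with a FERM and a PDZ domain, at 4.55, 4.71 and 3.75 FPKM in wild type, 7.36, 6.52 and 5.69 in M-Shp2-/- and 7.75, 6.44 and 7.5 with SHP099. Both altered groups lay wholly above wild type. Its log2 fold change was 0.63 with SHP099 (interval 0.31 to 0.94, limma, adjusted p = 0.0391, higher in 3 of 3 libraries) and 0.49 in M-Shp2-/- (0.14 to 0.85, adjusted p = 0.454, higher in 3 of 3 libraries). The SHP099 call was lost without wild-type replicate 1 (adjusted p = 0.086) or 2 (0.0658) and without SHP099 replicate 1 (0.164), 2 (0.132) or 3 (0.114), with no filter on low values (0.0936) and with a block by replicate number (0.0642), within a range of 0.0318 to 0.164 over its alternatives. Ptpn21, another FERM-domain enzyme, also lay above wild type in both groups, at 1.63, 2.07 and 1.23 FPKM, then 3.1, 2.74 and 2.48, then 3.59, 2.86 and 2.33, but did not pass (limma, log2 fold change 0.52 and 0.57, adjusted p = 0.462 and 0.114, higher in 3 of 3 libraries each). Ptpn3, of the same structure as Ptpn4, had a log2 fold change of 0.60 in M-Shp2-/- (adjusted p = 0.467, higher in 3 of 3 libraries) and 0.01 with SHP099.

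Ptprm, a receptor-type phosphatase whose outer part binds its like on neighbouring cells, had 2.28, 3.82 and 13.5 FPKM in wild type, 2, 1.18 and 31 in M-Shp2-/- and 24.6, 25.7 and 23.6 with SHP099. The SHP099 libraries were all above wild type, and M-Shp2-/- replicate 3 was above them, far from the other libraries of its group. With SHP099 its log2 fold change was 2.07 (limma, adjusted p = 0.0518, higher in 3 of 3 libraries), and without wild-type replicate 3 it was 2.69 and passed (adjusted p = 0.00394). It passed too by voom (2.35, adjusted p = 0.0365), with a pseudocount of 5 (0.041) and at a minimum of 5 FPKM (0.045). These made 4 of 17 alternatives, over which its log2 fold change was 1.48 to 2.69 and its adjusted p 0.00394 to 0.207. Ptprm shares 457 exonic bases with a pseudogene on its strand. Ptprf and Ptpn13, picked after their values were seen, varied with the library and not with the group. Ptprf had 1.28, 3.62 and 0.608 FPKM in wild type, 2.74, 1.24 and 5.06 in M-Shp2-/- and 3.49, 1.94 and 1.22 with SHP099, and Ptpn13 had 0.475, 2.08 and 0.175, then 1.02, 0.47 and 2.44, then 1.33, 0.777 and 0.333. In each group their libraries fell in the same order as the sum of 10 fibroblast and mesothelial markers, which was 66.3, 310.1 and 41.4 FPKM in wild type, 139, 52.8 and 595 in M-Shp2-/- and 367, 142 and 103 with SHP099. Ptprm did not follow that order, and some other classical phosphatases did not either. Col1a1 was the most abundant of those markers, none was at 0 in all libraries, and their part was not tested.

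**Figure D3:**
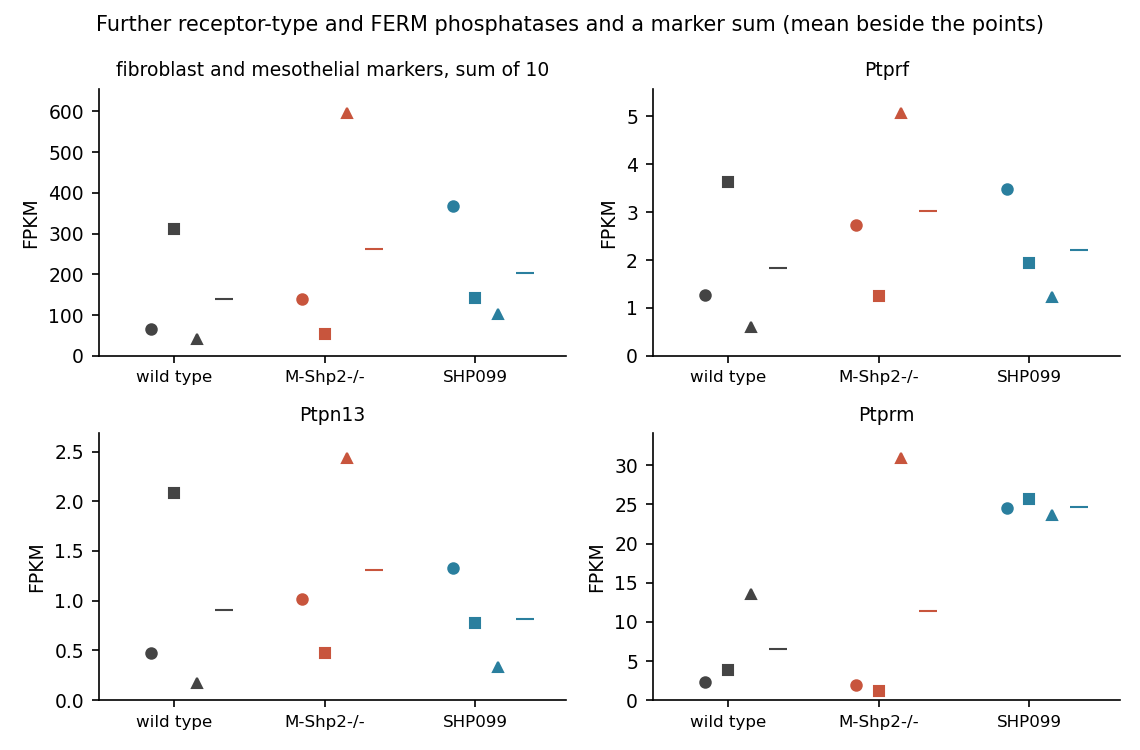
FPKM in each library (circles, squares and triangles for replicates 1, 2 and 3, dashes for group means) of the sum of 10 fibroblast and mesothelial markers and of Ptprf, Ptpn13 and Ptprm in the 3 groups. M-Shp2-/- replicate 3 is the highest library in all 4 panels (595, 5.06, 2.44 and 31 FPKM). In wild type, however, Ptprm is highest in replicate 3 (13.5), where the marker sum is lowest (41.4). With SHP099 Ptprm is near level (24.6, 25.7 and 23.6) while the sum is 367, 142 and 103.

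Tyrosine phosphatases of other folds and classes, 9 tested of 14, gave 0 calls at an adjusted p of 0.05 or lower by limma in either comparison with wild type, and 0 with an unadjusted p under 0.05 (10.5% and 26.7% of all genes). The smallest p-values in M-Shp2-/- were those of Acp1 (log2 fold change 0.30, adjusted p = 0.48), Ptp4a3 (0.52, adjusted p = 0.481) and Cdc25b (0.52, adjusted p = 0.509, and from 0.29 without wild-type replicate 3 to 0.78 without M-Shp2-/- replicate 3). With SHP099 Ptp4a3 (0.46, adjusted p = 0.262) and Ubash3b (-0.29, adjusted p = 0.21), a phosphatase that acts on Syk-family kinases, were the nearest to the threshold, before Acp1 (0.17, adjusted p = 0.462). With 1 library left out these ranged from 0.20 to 0.61 for Ptp4a3, -0.41 to -0.16 for Ubash3b and 0.03 to 0.26 for Acp1. In M-Shp2-/- the ranges were 0.16 to 0.39 for Acp1 and 0.27 to 0.68 for Ptp4a3.

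Among the Src-family kinases, Csk and its membrane adaptor, on which CD45, PTPα and the PEST enzymes act, 3 of 8 tested genes changed with SHP099 (6.96% of all genes), 2 lower and 1 higher. Src had 68.3, 76.7 and 76.9 FPKM in wild type, 50.3, 47.8 and 39.9 in M-Shp2-/- and 28.9, 29 and 37.6 with SHP099. The 3 groups did not overlap, with M-Shp2-/- between the others. Src fell by 1.20 on the log2 scale with SHP099 (SE 0.12, limma, adjusted p = 0.00769, lower in 3 of 3 libraries), while its log2 fold change in M-Shp2-/- was -0.68 (SE 0.12, adjusted p = 0.278, lower in 3 of 3 libraries) and between M-Shp2-/- and SHP099 0.52 (adjusted p = 0.279). Pag1, the adaptor that brings Csk to the membrane, had 10.4, 12 and 13.4 FPKM in wild type, 14.4, 14 and 24.6 in M-Shp2-/- and 29.4, 24.5 and 27 with SHP099. Pag1 was thus higher in every library of both groups than in wild type, and M-Shp2-/- replicate 3 reached the SHP099 range. Its log2 fold change was 1.11 with SHP099 (limma, adjusted p = 0.00846, higher in 3 of 3 libraries) and 0.49 in M-Shp2-/- (adjusted p = 0.478, higher in 3 of 3 libraries), and from 0.24 without M-Shp2-/- replicate 3 to 0.62 without its replicate 2. The SHP099 calls of Src and Pag1 held without any 1 library, where the adjusted p reached 0.0448 and 0.0478, and were lost with no filter on low values (0.0534 for both).

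Lyn, a Src-family kinase with inhibitory functions in myeloid cells, had 143, 132 and 127 FPKM in wild type, 118, 112 and 116 in M-Shp2-/- and 90.6, 93.6 and 108 with SHP099. Its groups did not overlap either, and it fell by 0.46 on the log2 scale with SHP099 (limma, adjusted p = 0.0385, lower in 3 of 3 libraries). In M-Shp2-/- its log2 fold change was -0.21 (adjusted p = 0.465, lower in 3 of 3 libraries). The SHP099 call was lost without wild-type replicate 1 (adjusted p = 0.0915) or 2 (0.0807) and without SHP099 replicate 1 (0.158), 2 (0.174) or 3 (0.0632), with no filter on low values (0.101), without the trend in the variance (0.062) and with a block by replicate number (0.0723), within a range of 0.0249 to 0.174 over its alternatives. By limma the list had 0 calls in M-Shp2-/- at an adjusted p of 0.05 or lower, and 2 of 8 genes with an unadjusted p under 0.05 (10.5% of all genes), and with SHP099 7 of 8 (26.7% of all genes).

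**Figure D4:**
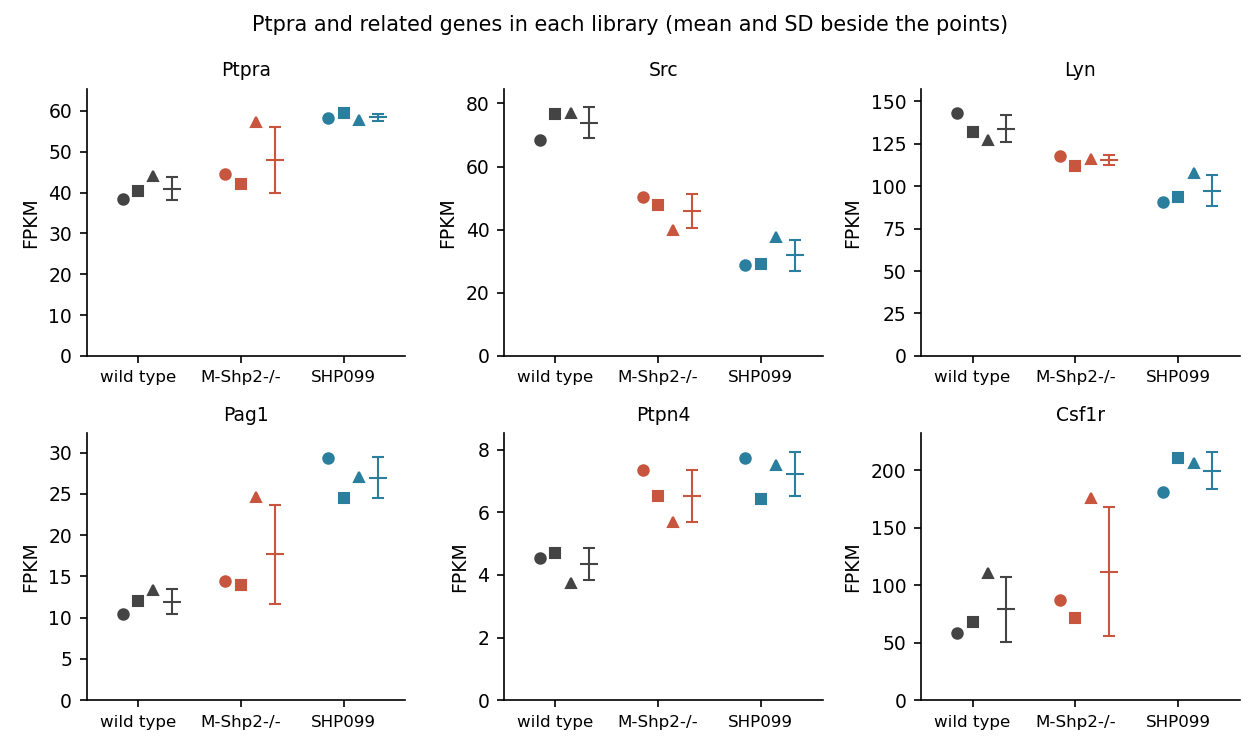
FPKM in each library (circles, squares and triangles for replicates 1, 2 and 3) with the group mean and SD beside the points, for Ptpra and for Src, Lyn, Pag1, Ptpn4 and Csf1r in the 3 groups. Src and Lyn are lower and the other 4 genes higher in all 3 SHP099 libraries than in any wild-type library.

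JAK kinases and STAT factors, substrates of PTP1B and TC-PTP, gave 2 genes of 9 that passed with SHP099 (6.96% of all genes), both lower, and 0 in M-Shp2-/- by limma (2 with an unadjusted p under 0.05, against 10.5% of all genes). Jak2 had 135, 176 and 142 FPKM in wild type, 107, 103 and 116 in M-Shp2-/- and 91, 96.7 and 115 with SHP099. Every library of both groups was below wild type, with a log2 fold change of -0.57 with SHP099 (limma, adjusted p = 0.0485, lower in 3 of 3 libraries) and -0.46 in M-Shp2-/- (adjusted p = 0.448, lower in 3 of 3 libraries). The Jak2 call was lost without any 1 library, at an adjusted p of 0.0716, 0.0894 and 0.0519 without wild-type replicates 1, 2 and 3 and 0.173, 0.193 and 0.0785 without SHP099 replicates 1, 2 and 3. It was also lost with no filter (0.15), equal-sum scaling (0.0503), quantile normalization (0.0514), no trend (0.0695) and the block (0.0639), and passed in 6 of 17 alternatives. Stat5a had 70.9, 38.6 and 43.7 FPKM in wild type, 49.8, 66 and 22.9 in M-Shp2-/- and 25.9, 26.4 and 24.4 with SHP099. SHP099 libraries were below all wild type (log2 fold change -0.92, limma, adjusted p = 0.0477, lower in 3 of 3 libraries), and the call was lost without SHP099 replicate 1 (0.154), 2 (0.174) or 3 (0.126). Stat5a also missed 0.05 with a pseudocount of 5 (0.051), no filter (0.164), no trend (0.0632), all 9 libraries in 1 fit (0.145), the block (0.0544) and voom (0.0502), so that it passed in 8 of 17 alternatives. Over the alternatives the adjusted p was 0.0326 to 0.193 for Jak2 and 0.0371 to 0.174 for Stat5a. For Stat5a, 72 exonic bases lie opposite Stat3 (128 FPKM), and the strand setting of the counting is not stated. Neither Stat3 in M-Shp2-/- (-0.46, adjusted p = 0.467) nor Jak1 with SHP099 (0.10, adjusted p = 0.458) passed.

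Of the receptors and receptor substrates that these phosphatases act on, 1 of 4 tested genes passed with SHP099 (6.96% of all genes) and 0 in M-Shp2-/- by limma (1 with an unadjusted p under 0.05, against 10.5% of all genes). Csf1r, the receptor for the macrophage growth factor CSF1, had 58.2, 67.8 and 111 FPKM in wild type, 87.4, 71.8 and 176 in M-Shp2-/- and 181, 211 and 206 with SHP099. All SHP099 libraries were above the others, with M-Shp2-/- replicate 3 the nearest of the rest. Csf1r had a log2 fold change of 1.38 with SHP099 (limma, adjusted p = 0.0222, higher in 3 of 3 libraries) and 0.44 in M-Shp2-/- (adjusted p = 0.592), where it ranged from 0.06 without replicate 3 to 0.71 without wild-type replicate 3. Without SHP099 replicate 1, 2 or 3 the call was lost (adjusted p = 0.076, 0.116 and 0.0774), as it was with median-of-ratios scaling (0.0575) and no filter (0.0979), within a range of 0.00394 to 0.116 over its alternatives, and 873 of its exonic bases lie opposite Hmgxb3 (11.2 FPKM). Insr, the insulin receptor, was higher in every library of both groups than in wild type, at 6.93, 7.01 and 6.1 FPKM, then 8.85, 9.1 and 7.79, then 10.1, 10.5 and 8.81, and did not pass (limma, log2 fold change 0.32 and 0.49, adjusted p = 0.465 and 0.0518, 3 of 3 libraries each). With SHP099 Insr did pass by voom (0.0423), with all 9 libraries in 1 fit (0.0376) and at a minimum of 5 FPKM (0.0461). The other named genes were Irs2 in M-Shp2-/- (-0.44, adjusted p = 0.624, and from -0.82 without M-Shp2-/- replicate 3 to -0.12 without wild-type replicate 3) and Igf1r with SHP099 (-0.31, adjusted p = 0.314).

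None of the 7 adhesion and cytoskeletal partners of the PEST enzymes passed by limma in either comparison with wild type, where 0 in M-Shp2-/- and 1 with SHP099 had an unadjusted p under 0.05 (10.5% and 26.7% of all genes). That 1 was Pstpip2, an adaptor that binds PEST phosphatases (log2 fold change -1.55 with SHP099, adjusted p = 0.0886, lower in 3 of 3 libraries; -0.94 in M-Shp2-/-, adjusted p = 0.591, and from -1.89 to -0.45 with 1 library left out). Bcar1 had a log2 fold change of 0.57 in M-Shp2-/- (adjusted p = 0.509, and from 0.35 to 0.82 with 1 library left out) and 0.37 with SHP099 (adjusted p = 0.526), and Wipf1 had 0.12 (adjusted p = 0.636, and from 0.04 to 0.20) and -0.12 (adjusted p = 0.506). Between M-Shp2-/- and SHP099, none of the lists counted next had a gene at an adjusted p of 0.05 or lower by limma, and those with an unadjusted p under 0.05 (12.6% of all genes) were 2 of 13 other classical phosphatases (Ptpn3 and Ptprs), 0 of 9 phosphatases of other classes, 3 of 8 Src and Csk genes (Src, Lyn and Pag1), 2 of 4 receptors and substrates (Csf1r and Igf1r) and 0 of 7 adhesion partners. Ptprs was named there after its values were seen.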

How the data were processed

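RNA of 9 libraries, 3 per group, was measured as FPKM, computed by the authors from paired-end reads (base calling with CASAVA 1.8, HISAT2 2.0.4 alignment, HTSeq 0.9.1 counting). The tool for FPKM, the annotation and the strand setting are not stated. FPKM times the mean transcript length of GENCODE M21 (build GRCm38) gave whole reads, within 0.05, for 96.3% to 96.7% of values up to 50 reads, at depths of 39839198 to 50985468 reads a library. Of 54059 genes, 353 lacked an M21 entry. The 11450 genes whose FPKM averaged 1 or more were fitted as log2(FPKM + 1) with limma 3.58.1 (lmFit, eBayes with trend, two-sided) in R 4.3.3, with the 6 libraries of each comparison and Benjamini-Hochberg adjustment over all 11450. The authors compared counts with DESeq. The deposited values are not counts, so no count test was used, and voom was run on recovered reads. A second deposited table lists assembled genes without values and was not used. Tables were made with pandas 2.3.3 and numpy 2.4.6 and plots with matplotlib 3.10.9, all under Python 3.11.15.

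Alternatives were a pseudocount of 0.1 or 5, no filter, a minimum of 5 FPKM, equal-sum, median-of-ratios and quantile scaling, no trend, all 9 libraries in 1 fit, a block by replicate number, a threshold of 0.05 on the adjusted p with none on the fold, and leaving out each library. The voom fit was added after the data had been seen. The settings of the other alternatives were planned, and they were applied to genes outside the 10 after the data had been seen. The members and lists were chosen with earlier results of these data known. Named genes were the 10 members, Ptpn11 and Ptpn6, up to 3 tested genes of each other list with the smallest p in each comparison with wild type, the most abundant gene of each marker list (macrophage, T and NK cell, neutrophil, mast cell and eosinophil, dendritic cell, fibroblast and mesothelium, endothelium), and the 2 genes nearest in profile to the 3 members whose group means ranged most. Genes named outside that rule are marked as such, and some results that the rule covers are not reported here.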

Additional observations from a re-analysis of the deposited data

How the results depend on the processing

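The 10 phosphatase genes, Ptpn11, Ptpn6 and the other named genes gave 1211 single-gene values under alternatives. Of these 1105 kept their direction and side of an adjusted p of 0.05, 60 lost the call, 11 gained one and 35 changed sign, and the cause was not tested. In M-Shp2-/- against wild type the sign changed for Ptpn22 with quantile normalization (-0.06) and for Ptpn6 (-0.05) and Wipf1 (-0.03) with median-of-ratios scaling. With SHP099 it changed for Ptpn2 (-0.13 with median-of-ratios scaling, -0.09 with quantile normalization) and, with median-of-ratios scaling, for Ptpn12 (-0.12), Ptprj (-0.11) and Jak1 (-0.04). Leaving out 1 library at a time, the log2 fold change in M-Shp2-/- ranged from -0.19 to 0.15 for Ptpn1, -0.30 to 0.07 for Ptpn12, -0.01 to 0.27 for Ptpn22 and -0.03 to 0.36 for Ptpn6. With SHP099 it ranged from -0.24 to 0.09 for Ptpn1, -0.10 to 0.08 for Ptpn2, -0.06 to 0.07 for Ptpn12, -0.11 to 0.17 for Ptpn22 and -0.03 to 0.12 for Ptprj. Between M-Shp2-/- and SHP099 it ranged from -0.06 to 0.25 for Ptpn1, -0.33 to 0.04 for Ptpn12, -0.05 to 0.19 for Ptpn22, -0.00 to 0.08 for Ptprc, -0.08 to 0.10 for Ptpre and -0.19 to 0.18 for Ptpn6.

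By the stricter rule, 1 gene in all was called in M-Shp2-/- against wild type. That count was 0 with no filter, without trend and with the replicate block, 3 with median-of-ratios scaling, 2 with all 9 libraries in 1 fit, 10 at an adjusted p of 0.05 alone, and 0 to 0 without 1 library. With SHP099 it was 19, and 0 with no filter and with the replicate block, 4 without trend, 9 by voom, 797 at an adjusted p of 0.05 alone and 0 to 26 without 1 library. Between M-Shp2-/- and SHP099 it was 0, and 1 with all 9 libraries in 1 fit, 8 at an adjusted p of 0.05 alone and 0 to 159 without 1 library, with 159 without M-Shp2-/- replicate 3. Of the 10 phosphatase genes and of the other classical phosphatases, 1 each was called with SHP099 at an adjusted p of 0.05 alone. The other classical phosphatases gave 0 to 1 calls without 1 library, both with SHP099 and between M-Shp2-/- and SHP099. The labels do not say whether replicate numbers pair libraries across groups. Over genes, deviations from the group means correlated between M-Shp2-/- and wild-type libraries of the same number at 0.492, -0.431 and 0.185. Between SHP099 and wild-type libraries of the same number the values were -0.041, -0.09 and 0.454. These mixed values do not settle whether libraries were paired. With 3 libraries a group, a difference whose interval holds 0 could not be told from 0.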

Other observations

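The sum of 7 T-cell and NK-cell markers, with Cd3g the most abundant, was 0.729, 2.26 and 5.55 FPKM in wild type, 0.358, 0.46 and 3.2 in M-Shp2-/- and 6.25, 4.44 and 4.12 with SHP099. Replicate 3 was the highest library in both wild type and M-Shp2-/-. The sum of 7 neutrophil markers was 38.9, 96.7 and 60.5 FPKM in wild type, 42.7, 40.9 and 101 in M-Shp2-/- and 51.4, 57.3 and 77.3 with SHP099, nearly all of it S100a8. The neutrophil sums overlapped between the 3 groups. Only 2 of the 7 neutrophil markers and 0 of the 7 T-cell and NK-cell markers passed the filter of 1 FPKM. The neutrophil sum therefore follows S100a8, and whether it tracks neutrophils was not tested. No marker of either list was at 0 in all libraries.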
